A study of Mus musculus with 15 samples.

Results

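H3K4me3 was followed at the genes of the conjugating (phase II) enzymes of the liver, the glucuronosyltransferases (Ugt), the sulfotransferases (Sult) and the soluble glutathione transferases (Gst). These genes were taken by symbol from the protein-coding genes of the mm10 annotation, as every symbol starting with Ugt1a, Ugt2a, Ugt2b, Ugt3a, with Sult and a digit, or with Gst, one of the letters a, k, m, o, p, t or z and a digit. The rule found 64 of 21755 protein-coding genes on chromosomes 1 to 19 and X, with 21 Ugt, 21 Sult and 22 Gst genes. The rule uses symbols alone, but the set was chosen with earlier results of these data known.

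The data were lists of H3K4me3 peaks from PAT-ChIP-Seq, chromatin immunoprecipitation from formalin-fixed and paraffin-embedded (FFPE) tissue, in the livers of 15 C57BL/6 female mice (C57BL/6J in the study's methods). Each mouse gave 1 library and 1 list, and 3 mice were fed each of 5 diets. The mice received a standard diet (SD) ad libitum, calorie restriction (CR), which was a limited daily amount of the standard formula, a high-fat diet (HF) ad libitum, or a diet in which the maize of the standard formula was replaced by yellow corn (YD) or purple corn (RD), both ad libitum. The labels give an age of 12 months for all mice, while the design gives a start of the diets at 3 months and 10 months of feeding. The mice came from several litters, and the litter of each mouse is not given in the sources used here. The HF diet was a separate formula that differed from SD in protein and carbohydrate as well as fat, whereas purple and yellow corn were near-isogenic lines that differ in anthocyanins, mainly cyanidin-3-O-glucoside. A peak, called an island by its caller SICER2, is a run of enriched windows of 200 bp joined over gaps of up to 400 bp, and each has a score that is not scaled between libraries. For each gene, the highest-scoring peak within 1 kb of any annotated transcription start site (TSS) was taken. A gene with such a peak is called marked, its width is given in bp, and its score percentile is the share of the list's own peaks that score at or below it, with 0 for a gene without a peak.

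Conjugating enzymes join a polar group to steroids, bile acids, bilirubin, drugs and plant compounds so that they can be excreted in bile or urine. Ugt enzymes transfer glucuronic acid from UDP-glucuronate in the endoplasmic reticulum, cytosolic Sult enzymes transfer sulfate from PAPS, and Gst enzymes couple electrophiles to glutathione. The liver is their main site of expression, many of their genes sit in tandem clusters of close relatives, and H3K4me3 is the histone mark found around the start sites of active genes.

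The promoters of 8 genes are shown because the results turn on them, each as 250 bases before to 50 bases after the start, with every CG dinucleotide in capitals. Ugt1a1, Sult1a1 and Gsta3 were the widest-marked gene of their class among those with a peak in all 15 lists, Gstm1 was the gene called between corn-fed and other mice, Gsto1 and Gstp1 had no peak in any corn-fed mouse, and Gstm2 and Gstp2 are relatives of Gstm1 and Gstp1 with no peak in any list. The sequences are from RefSeq on GRCm38.p6, the assembly of mm10, and 56 of the 64 genes had an entry.
Ugt1a1: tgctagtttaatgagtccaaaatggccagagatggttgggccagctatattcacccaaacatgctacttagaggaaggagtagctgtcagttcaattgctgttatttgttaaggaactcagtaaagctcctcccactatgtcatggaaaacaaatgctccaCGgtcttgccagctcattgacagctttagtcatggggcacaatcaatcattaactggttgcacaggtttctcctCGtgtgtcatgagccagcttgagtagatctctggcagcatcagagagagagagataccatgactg
Sult1a1: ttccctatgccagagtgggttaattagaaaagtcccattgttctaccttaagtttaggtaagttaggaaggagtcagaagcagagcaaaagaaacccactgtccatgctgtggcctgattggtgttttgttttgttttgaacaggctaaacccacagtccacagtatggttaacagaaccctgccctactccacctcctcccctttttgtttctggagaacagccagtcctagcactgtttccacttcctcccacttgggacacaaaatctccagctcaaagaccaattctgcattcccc
Gsta3: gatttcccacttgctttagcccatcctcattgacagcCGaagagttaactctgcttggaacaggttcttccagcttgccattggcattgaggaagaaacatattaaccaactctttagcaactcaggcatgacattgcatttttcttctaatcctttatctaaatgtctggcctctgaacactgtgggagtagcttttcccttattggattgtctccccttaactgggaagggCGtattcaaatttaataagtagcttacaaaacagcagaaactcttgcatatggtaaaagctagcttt
Gstm1: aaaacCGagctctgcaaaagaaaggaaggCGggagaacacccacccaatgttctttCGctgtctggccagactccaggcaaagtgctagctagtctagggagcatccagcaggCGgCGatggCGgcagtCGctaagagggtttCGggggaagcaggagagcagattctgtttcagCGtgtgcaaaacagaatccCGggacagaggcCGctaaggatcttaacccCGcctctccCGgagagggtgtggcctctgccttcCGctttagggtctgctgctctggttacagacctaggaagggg
Gstm2: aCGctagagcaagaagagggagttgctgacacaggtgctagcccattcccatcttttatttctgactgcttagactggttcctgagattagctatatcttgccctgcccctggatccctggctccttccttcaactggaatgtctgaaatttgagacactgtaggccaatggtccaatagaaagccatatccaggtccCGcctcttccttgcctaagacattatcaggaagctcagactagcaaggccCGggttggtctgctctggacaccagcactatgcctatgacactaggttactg
Gsto1: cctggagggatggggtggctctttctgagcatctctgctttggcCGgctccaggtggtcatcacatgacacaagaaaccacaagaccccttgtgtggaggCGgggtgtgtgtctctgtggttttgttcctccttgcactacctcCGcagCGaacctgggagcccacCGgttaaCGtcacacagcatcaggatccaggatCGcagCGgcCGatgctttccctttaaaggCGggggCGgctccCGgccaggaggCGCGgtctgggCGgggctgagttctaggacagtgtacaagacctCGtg
Gstp1: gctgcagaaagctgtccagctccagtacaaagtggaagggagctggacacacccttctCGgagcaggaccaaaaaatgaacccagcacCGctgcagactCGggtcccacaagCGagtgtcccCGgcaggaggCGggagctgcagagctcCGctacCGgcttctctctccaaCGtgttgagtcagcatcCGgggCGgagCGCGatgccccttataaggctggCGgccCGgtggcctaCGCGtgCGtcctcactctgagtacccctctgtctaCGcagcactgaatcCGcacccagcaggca
Gstp2: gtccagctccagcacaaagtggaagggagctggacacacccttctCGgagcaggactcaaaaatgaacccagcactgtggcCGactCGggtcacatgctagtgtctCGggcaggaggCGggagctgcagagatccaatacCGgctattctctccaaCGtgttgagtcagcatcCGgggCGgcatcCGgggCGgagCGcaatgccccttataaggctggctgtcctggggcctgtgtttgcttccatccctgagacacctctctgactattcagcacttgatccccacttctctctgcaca
They lie at chr1:88211709-88212008 (plus strand), chr7:126676369-126676668 (minus), chr1:21240335-21240634 (plus), chr3:108017924-108018223 (minus), chr3:107986371-107986670 (minus), chr19:47854723-47855022 (plus), chr19:4037863-4038162 (minus) and chr19:4042172-4042471 (minus). The Sult1a1 promoter held 0 CG, those of Ugt1a1 and Gsta3 held 2 each and that of Gstm2 held 3, against 12 in Gstp2, 14 in Gstm1, 16 in Gsto1 and 20 in Gstp1. Gstm1 had 2 RefSeq promoters, of which the one richer in CG is shown. The other, at chr3:108017769-108018068, held 8 CG.

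The lists held 7825 to 33752 peaks, and the reads behind them, recovered from the steps of the scores, numbered 5589269 to 15449854 per library. The lists of CR mouse 3 and RD mouse 2 were the longest, with 33752 and 32131 peaks, and the main counts are also given without them. Of 9 annotated hepatocyte markers, 4 to 9 were marked per list. Hnf4a, Ass1, Apob and Ttr were marked in all 15 lists and Cps1, Apoa1, Pck1, Alb and Serpina1c in 13, 11, 9, 8 and 6. Alb was marked in no CR mouse and Serpina1c in no corn-fed mouse. Stellate and cholangiocyte markers were marked in 0 to 2 of 5 per list and lymphocyte markers in 0 to 1 of 5. Kupffer cell markers were marked only in HF lists (0 to 3 of 5), and sinusoidal endothelial markers in 3 to 5 of 5 in HF, 0 to 4 in SD, 1 to 3 in CR, 0 in YD and 0 to 2 in RD. The part of these cells in the results was not tested. The livers were bulk tissue, so fewer cells of a type and less mark per cell cannot be told apart.

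Of the 64 genes, 7 were marked in all 15 lists, 28 in 1 to 14 lists and 29 in none. The share in all lists was 10.9%, against 9.46% of all protein-coding genes, and the share in none was 45.3%, against 40% of all protein-coding genes. The genes marked in every liver were Ugt1a1, Ugt2b34 and Ugt2b36 among the glucuronosyltransferases, Sult1a1 among the sulfotransferases, and Gsta3, Gstt2 and Gstz1 among the glutathione transferases. The 3 classes differed in how many genes were never marked, at 8 of 21 Ugt, 13 of 21 Sult and 8 of 22 Gst genes, a count given without a test. Of the 35 genes marked in at least 1 list, 17 were marked only in lists of SD, CR and HF mice (48.6%, against 26.6% of all marked protein-coding genes), 17 in both sets of diets and 1, Sult2a8, only in corn-fed mice (2.86%, against 1.79%). The first set holds 9 lists and the second 6, so these shares are not expected to be equal.

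**Figure D1:**
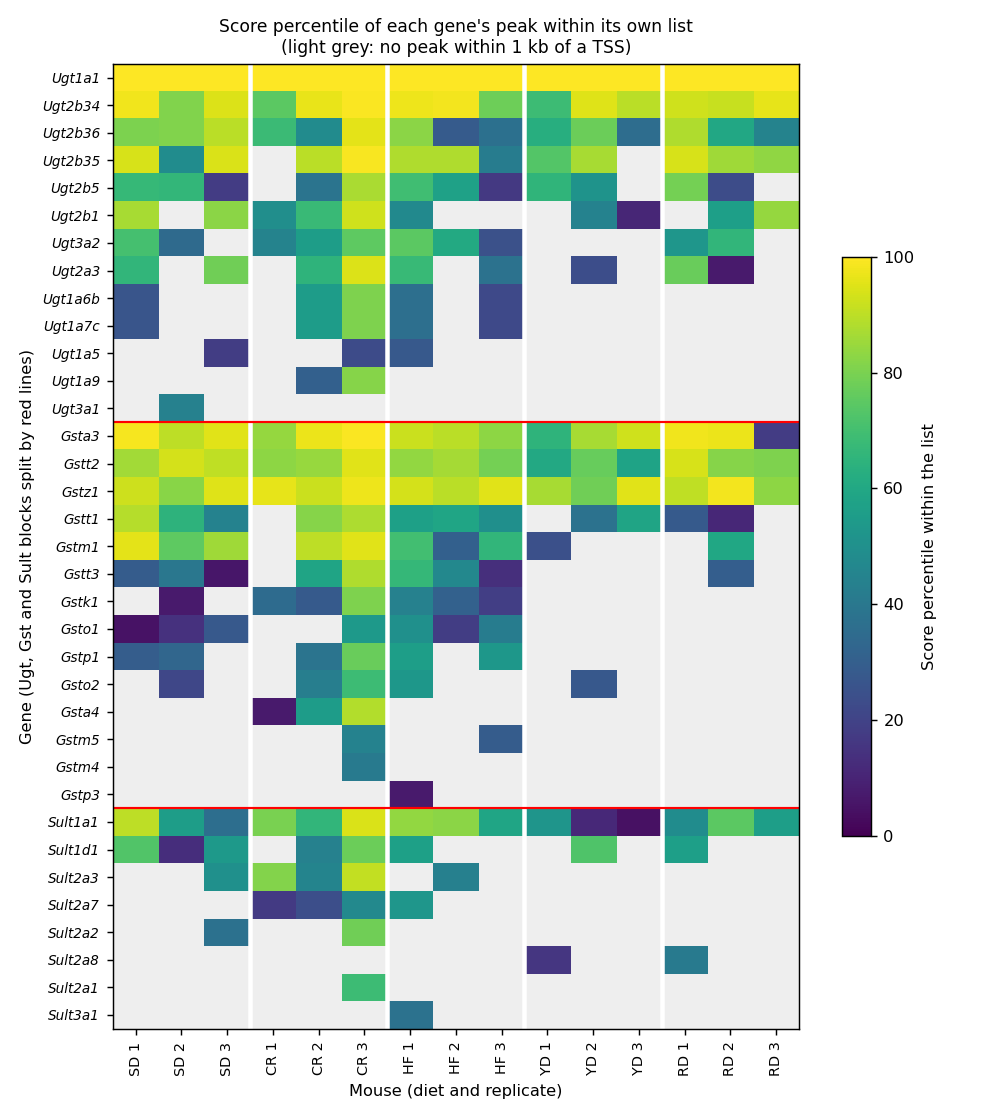
Score percentile, within each mouse's own list, of the peak at each of the 35 genes marked in at least 1 list (rows, in blocks of Ugt, Gst and Sult genes), for the 15 mice (columns, by diet). Ugt1a1 stands near the top of every list, 7 genes are filled in all 15 columns, and the columns of YD and RD mice hold 9 to 15 filled cells each.

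The 3 SD mice had 20, 19 and 19 marked genes, the CR mice 13, 25 and 31, the HF mice 26, 16 and 20, the YD mice 11, 14 and 9, and the RD mice 14, 15 and 9. The mean ± SD over 3 mice was 19.3 ± 0.577 with the standard diet, 23 ± 9.17 with CR and 20.7 ± 5.03 with HF, but 11.3 ± 2.52 with YD and 12.7 ± 3.21 with RD. Every YD and RD mouse had fewer marked genes than every SD mouse, while CR mouse 1, with 13, lay within the corn-fed range of 9 to 15 and HF mouse 2, with 16, just above it. Without CR mouse 3 the CR mean was 19, and without RD mouse 2 the RD mean was 11.5.

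Protein-coding genes at large were also marked less in the corn diets on average, although RD mouse 2 lay above SD mouse 3 there and HF lay above CR. The share of all protein-coding genes marked ranged from 32.7% to 43.1% among SD mice, 35.5% to 48.2% among CR mice, 47.6% to 54.6% among HF mice, 17.5% to 26.5% among YD mice and 27.8% to 34.7% among RD mice. The share of conjugating-enzyme genes was below that of all protein-coding genes in every mouse except CR mouse 3, where 48.4% of the 64 genes and 48.2% of all genes were marked. The diets also differed in how many of the genes marked in at least 1 mouse were marked in all 3, at 14 of 26 genes in SD mice, 13 of 31 in CR mice, 15 of 28 in HF mice, 7 of 16 in YD mice and 8 of 17 in RD mice. These shares were 53.8%, 41.9%, 53.6%, 43.8% and 47.1% in the same order, against 59.8%, 64% and 80.4% of all marked protein-coding genes in SD, CR and HF mice and 35.4% and 48.6% in YD and RD mice.

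**Figure D2:**
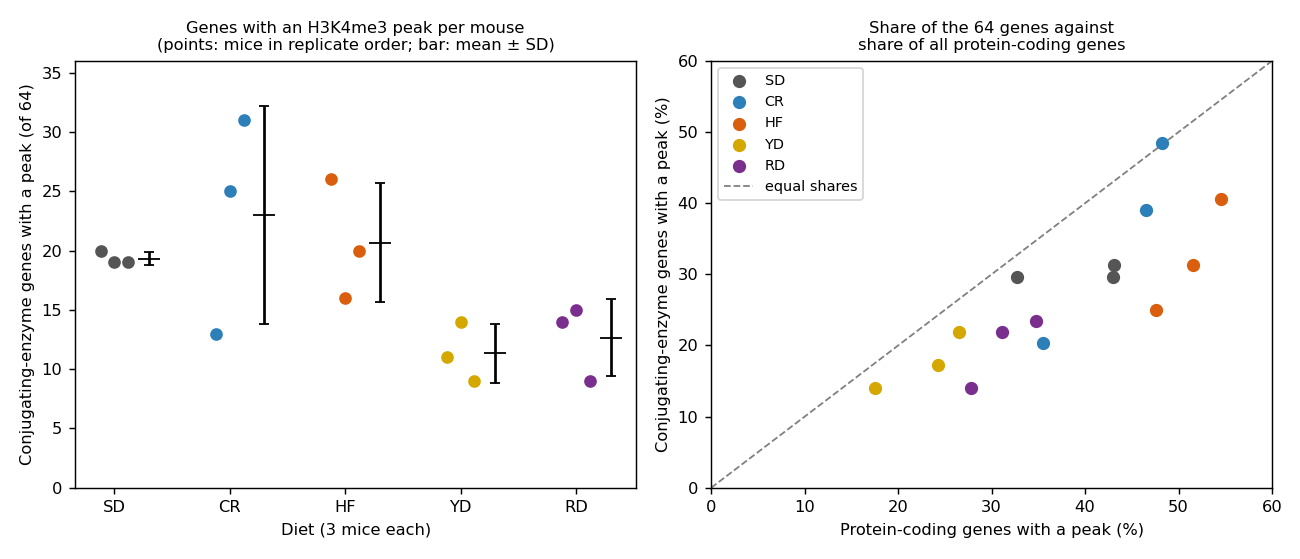
Left, number of the 64 conjugating-enzyme genes with a peak in each mouse (points) and the mean ± SD of the 3 mice of a diet (bars). Right, percent of the 64 genes with a peak against percent of all protein-coding genes with a peak in the same mouse, where the dashed line marks equal shares and all mice but CR mouse 3 lie under it.

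Among the glucuronosyltransferases, Ugt1a1, which conjugates bilirubin, had by far the widest and highest-scoring peak. Its 9 family members share their last exons and differ in their first exon and promoter, along chr1:88055388-88220002. The width of the Ugt1a1 peak was 17200, 21200 and 32400 bp in SD, 19400, 13600 and 14800 bp in CR, 17400, 22600 and 58600 bp in HF, 59000, 18800 and 16800 bp in YD, and 21600, 23400 and 13200 bp in RD. The diets overlapped, the narrowest and the widest peaks both came from corn-fed mice, and the peak was the widest of its whole list in SD mouse 3, HF mouse 3 and YD mouse 1. By score it ranked between place 7 and place 19 from the top in every list.

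The Ugt1a1 peak began 358 or 558 bp before the TSS and in every list ran past the end of the gene, by 5803 to 51403 bp. It also came within 1 kb of a TSS of the next gene, Mroh2a, in 13 lists and of Hjurp in 2 lists, so its width is not that of a single promoter. In the 13200 bp shared by all lists (chr1:88211601-88224800), 99.1% of the 50-base stretches occurred once in the genome, and in the rest of the widest peak 98.9% did. No input library was used here, so whether the reads of this stretch exceed those of unselected chromatin was not tested.

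**Figure D3:**
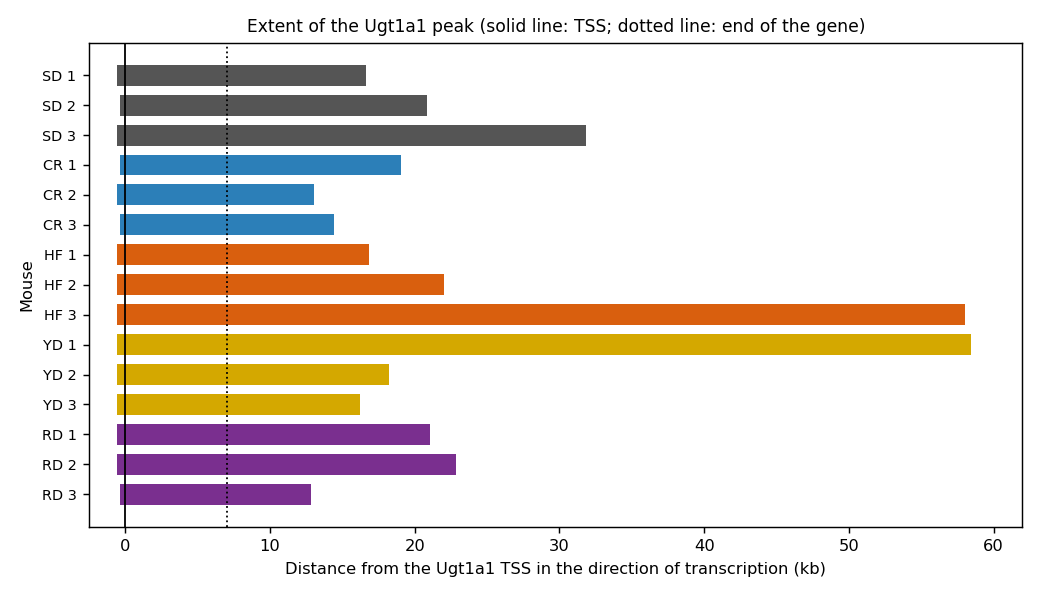
Extent of the Ugt1a1 peak in each of the 15 mice, in kb from the TSS in the direction of transcription, coloured by diet. All peaks start just before the TSS and pass the end of the gene (dotted line), and those of HF mouse 3 and YD mouse 1 are the widest, at 58600 and 59000 bp.

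The other Ugt1a genes were marked seldom or never. Ugt1a6b and Ugt1a7c were marked by 1 shared peak in 5 lists, Ugt1a5 was marked in 3 lists and Ugt1a9, which acts on phenols, in 2, all in SD, CR or HF mice. By the median, the shared peak began past the gene start of Ugt1a6b, which lies 8190 bp downstream of that of Ugt1a7c. Ugt1a2, Ugt1a6a, Ugt1a8 and Ugt1a10 were marked in none. Between 71.9% and 99.4% of the 50-base stretches around the start sites of this family occurred once in the genome. The share was 99.4% at Ugt1a8, 96.1% at Ugt1a2, 83% at Ugt1a10 and 72.3% at Ugt1a6a, all unmarked, and 75.3% at Ugt1a1, marked in every list. These shares cover 1 kb on both sides of a start site, which at Ugt1a1 takes in sequence before the peak. In the part of the Ugt1a1 peak shared by all lists the share was 99.1%. Reads from repeated stretches were removed by the authors, so a missing peak is uncertain where this share is low. The part of this removal in the missing peaks was not tested.

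The Ugt2 genes, whose products act on steroids, bile acids and drugs, lie together with 3 Sult1 genes on chr5:86889767-87591594. Ugt2b34 was marked in every list, with widths of 4800, 2400 and 3600 bp in SD, 2200, 3800 and 5800 bp in CR, 3200, 3400 and 3600 bp in HF, 2200, 3600 and 2200 bp in YD, and 3600, 1800 and 3400 bp in RD. The widths of the 5 diets overlapped throughout. Its neighbours Ugt2b36, Ugt2b35, Ugt2b5 and Ugt2b1 were marked in 15, 13, 12 and 10 lists, and Ugt2a3 in 9. Ugt2b37, Ugt2b38, Ugt2a1 and Ugt2a2 in the same stretch were marked in none, and at Ugt2b38 58% of the 50-base stretches occurred once. Of the 7 Ugt2b genes, 5 were marked in at least 10 lists.

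Ugt3a2, of the family that uses UDP sugars other than UDP-glucuronate, was one of the genes that separated pairs of diets. Its score percentile was 70.6, 34.6 and 0 in SD, 44.7, 55.7 and 75.1 in CR, 74.8, 60.6 and 24.9 in HF, 0 in all 3 YD mice, and 52.4, 65.9 and 0 in RD. Only YD had no marked mouse, and SD and RD each had 1 unmarked mouse, so neither was set apart from YD in every animal. Ugt3a1 was marked in 1 list.

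Among the sulfotransferases, Sult1a1, which sulfates phenols, was the single gene marked in every list. Its score percentile was 89.9, 55.7 and 36.1 in SD, 79.9, 65.7 and 94.4 in CR, 83.8, 82.6 and 58.6 in HF, 52, 11.6 and 4.53 in YD, and 48.7, 74.7 and 56.1 in RD. The lowest ranks were those of YD mice 2 and 3, and RD mice overlapped with SD mice. Sult1d1, which sulfates catecholamines, was marked in 8 lists across all diets, whereas Sult1b1 and Sult1e1 beside it, the latter an oestrogen sulfotransferase, were marked in none.

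The Sult2a genes, which sulfate bile acids and hydroxysteroids, were marked in few lists. Sult2a7 had a score percentile of 16.8, 24 and 47 in the CR mice and 52.6 in HF mouse 1, and no peak in the other 11 mice. These peaks lay at start sites 1249 to 1304 bp downstream of the annotated gene start. Sult2a3 was marked in all 3 CR mice and in 1 SD and 1 HF mouse, Sult2a2 in 1 SD and 1 CR mouse, and Sult2a1 in CR mouse 3 alone. At Sult2a1 and Sult2a2 29.6% and 31.7% of the 50-base stretches occurred once, so reads there cannot be placed with confidence. Sult2a8 was marked in YD mouse 1 and RD mouse 1 at a start site 10322 bp from its gene start. Sult2a4, Sult2a5, Sult2a6, Sult2b1, Sult1c1, Sult1c2, Sult3a2, Sult4a1, Sult5a1, Sult6b1 and Sult6b2 were marked in none, and Sult3a1 only in HF mouse 1.

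Among the glutathione transferases, Gsta3, an alpha-class enzyme, had the widest peak. Its width was 5200, 3600 and 3600 bp in SD, 4200, 5000 and 6200 bp in CR, 5000, 3400 and 4400 bp in HF, 3800, 2600 and 2000 bp in YD, and 3000, 5600 and 1000 bp in RD. Of the 6 corn-fed mice, 5 were at or below 3800 bp and RD mouse 2 had 5600 bp, and the groups overlapped. Gstz1, the maleylacetoacetate isomerase of tyrosine breakdown, was marked in all lists but shared its peak in 14 of them with Pomt2, whose gene start lies 803 bp away on the other strand. Gstt2 was marked in all lists at 1600 to 4600 bp. By the median, its peak began past the gene start and ended 4623 bp downstream of it.

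The Gstm genes lie on chr3:107895821-108044894, and Gstm1, the main mu-class enzyme of liver, was marked in 10 lists while Gstm5 was marked in 2, Gstm4 in 1 and Gstm2, Gstm3, Gstm6 and Gstm7 in none. The score percentile of Gstm1 was 95.8, 75.2 and 85.7 in SD, 0, 89.8 and 95.3 in CR, 69.8, 30.5 and 65.9 in HF, 24.2, 0 and 0 in YD, and 0, 59.7 and 0 in RD. Of the 6 corn-fed mice, 4 had no peak, as did CR mouse 1, and RD mouse 2 stood above HF mouse 2, so the groups overlapped in those animals.

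Gsto1, an omega-class enzyme with glutaredoxin-like activity, and Gstp1, the pi-class enzyme, had no peak in any corn-fed mouse. The score percentile of Gsto1 was 4.87, 14.4 and 27.8 in SD, 0, 0 and 53.9 in CR, and 50.2, 18.4 and 42.1 in HF. That of Gstp1 was 29.4, 33 and 0 in SD, 0, 38.3 and 77.1 in CR, and 56, 0 and 53.1 in HF. Every SD and HF mouse was marked at Gsto1 but only 1 CR mouse, and Gstp1 was marked in 2 of 3 mice of each of SD, CR and HF. Gstp2, a close copy next to Gstp1, was marked in none, and 75% of the 50-base stretches at Gstp1 and 72% at Gstp2 occurred once.

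Gstt3, a theta-class enzyme, had a score percentile of 29, 39.6 and 6.23 in SD, 0, 58.3 and 88.2 in CR, 66.6, 46.8 and 13.4 in HF, 0 in all 3 YD mice, and 30 in RD mouse 2, with 0 in the other RD mice. All of its peaks were shared with the gene model Gm20441, whose start lies 460 bp away on the same strand. Gsta4, which conjugates the lipid peroxidation product 4-hydroxynonenal, was marked only in CR, at 7.11, 55.1 and 88.4, and the peaks lay at a second annotated start site 9173 bp downstream of the gene start. The 3 CR mice thus differed from each other over nearly the whole scale. Gstk1, the kappa-class enzyme of mitochondria and peroxisomes, was marked in all CR and HF mice, 1 SD mouse and no corn-fed mouse. Gsta1, Gsta2 and Gstt4 were marked in none, and at Gsta1 15.6% of the 50-base stretches occurred once.

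To compare the corn diets with the others, the score percentiles of the 6 YD and RD mice were set against those of the 9 SD, CR and HF mice, over all 11889 protein-coding genes marked in at least 2 lists, of which 30 are conjugating-enzyme genes. Gstm1 was lower in corn-fed mice, at a mean of 14 ± 24.4 (SD, n = 6) against 67.6 ± 32.4 (SD, n = 9), a difference of -53.6 percentile points (two-sided exact permutation test, p = 0.00739, Benjamini-Hochberg adjusted p = 0.0412). It was 1 of 30 genes called, at 3.33%, whereas 24.5% of all genes tested were called lower and 0.0168% higher. When every list was limited to its 7825 top-scoring peaks, the length of the shortest, 0 conjugating-enzyme genes and 44 of 9496 genes in all (0.463%) were called, and with the replicate number as a block Gstm1 had an adjusted p of 0.06 by the same exact permutation test. The direction was shared widely, with a lower mean in corn-fed mice at 29 of the 30 genes and at 95.8% of all genes tested, a higher mean at 1 gene (Sult2a8) against 4.17%, and a median difference of -15.8 points over the 30 genes against -24.3 points over all genes.

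At an unadjusted p under 0.05, 8 of the 30 genes were lower in corn-fed mice, against 46% of all genes tested, and 0 were higher, against 0.0925%. Beside Gstm1 these were Gstk1 (-27.2 points), Gsto1 (-23.5), Gstt3 (-33.7), Gstt1 (-36.5), Sult1a1 (-30.6), Gstp1 (-31.9) and Gstt2 (-11.7), with adjusted p between 0.0545 and 0.0796 by the same exact permutation test, so none of the 7 passed. Of the 8 genes, 7 are glutathione transferases and none is a glucuronosyltransferase. The 12 glucuronosyltransferases tested differed by -29.3 points (Ugt3a2) to -0.0364 points (Ugt1a1, which stood near the top of the scale in every list), so several differences were as large as those of the genes above. Ugt2a3 differed by -27.5 points and Ugt2b34 by -1.86, and the glutathione transferase Gstz1 by -3.9, none past an unadjusted p of 0.05. Whether the classes differ was not tested.

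**Figure D4:**
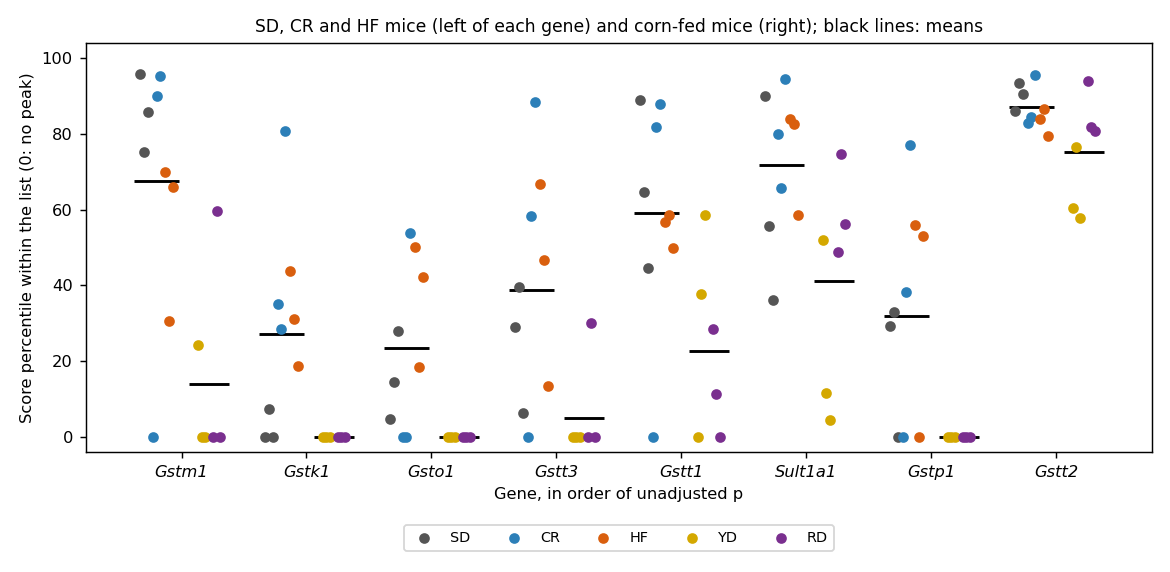
Score percentile in each mouse for the 8 genes with an unadjusted p under 0.05 between corn-fed and other mice, with SD, CR and HF mice on the left and YD and RD mice on the right of each gene, black lines at the means and some points at 0 overlying each other. Only Gstm1 passed after adjustment, and Gstk1, Gsto1 and Gstp1 have all 6 corn-fed mice at 0.

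The names of the deposited lists take 2 forms, and 5 of the 6 corn-fed and 5 of the 9 other mice have the form ChIP, while 1 and 4 have the form PATChIP. Within the ChIP form the difference of Gstm1 was -67.6 points with no overlap between the groups (exact permutation test, p = 0.00794, the smallest that 5 mice against 5 allow), but the adjusted p was 0.103 and 0 of all genes tested were called. The PATChIP form held 1 corn-fed mouse and gave no value. When single mice were left out, Gstm1 passed in 4 of 15 cases, those without SD mouse 3, CR mouse 1, HF mouse 2 or RD mouse 2, and its adjusted p ranged from 0.017 to 0.0787. Without the 2 longest lists its adjusted p was 0.0498. Without SD mouse 3, 5 genes were called, without CR mouse 1, 4, and without RD mouse 2, 2. Over all genes tested, 4682, 3877 and 3080 were called in those cases, against 2917 with all mice.

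To compare the high-fat diet with the rest, the 3 HF mice were set against the 12 others in the same way. No conjugating-enzyme gene and 0% of all 11889 genes passed (two-sided exact permutation test, smallest adjusted p = 0.104). At an unadjusted p under 0.05, 18.4% of all genes tested were higher in HF and 1 of the 30 genes was, Gsto1, at a mean of 36.9 ± 16.6 (SD, n = 3) against 8.42 ± 16.7 (SD, n = 12). At that level 0 of the 30 genes and 0.118% of all genes were lower. The mean was higher in HF at 22 of the 30 genes and at 95.3% of all genes, with median differences of 3.7 and 21.4 points. Ugt2b1 (-32.1 points) and Ugt2b36 (-19.8 points) were among the 8 genes with a lower mean in HF (4.69% of all genes), neither past an unadjusted p of 0.05.

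The 3 YD mice were likewise set against the 12 others, which include the RD mice, so that this comparison and the 2 before it share mice. No gene of the 30 and 0% of all genes passed (two-sided exact permutation test, smallest adjusted p = 0.0569). At an unadjusted p under 0.05, 31.7% of all genes tested were lower in YD, and 3 of the 30 genes were by the exact test, namely Gstt2 (-21.6 points, adjusted p = 0.0569), Sult1a1 (-46.1 points, adjusted p = 0.0701) and Ugt3a2 (-46.6 points, adjusted p = 0.102). At that level 0 of the 30 and 0.0252% of all genes were higher. The mean was lower in YD at 29 of the 30 genes and at 96% of all genes, and higher at 1 and 3.98%. Gstt2 stood at 60.3, 76.6 and 57.8 in YD and between 79.3 and 95.5 in all other mice, so the groups did not overlap. Gstt2 was called when SD mouse 3 or RD mouse 3 was left out, and in no other case of 1 mouse left out. Over all genes tested, 666 and 738 were called in those 2 cases, against 0 with all mice.

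Pairs of diets were compared by presence, since 3 mice against 3 cannot give a two-sided p under 0.1. Gained meant marked in 2 or 3 mice of the first diet but unmarked in every mouse of the second, and lost meant the reverse. Against SD, 3 of the 64 genes were gained in CR (4.69%, against 1.79% of all protein-coding genes), namely Gsta4 and Sult2a7 in 3 of 3 mice and Ugt1a9 in CR mice 2 and 3, and 0 were lost (0.336% of all). Without CR mouse 3, whose list was the longest, Gsta4 and Sult2a7 were gained, Ugt1a9 was not, and Gsto1 was lost. The count was 2 without CR mouse 2 and 5 without SD mouse 1 or SD mouse 2. In HF 0 genes were gained and 0 lost, against 4.69% and 0.0735% of all protein-coding genes, and the count was 2 without SD mouse 1 or HF mouse 1 and 1 without SD mouse 2.

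In YD 4 genes were lost against SD (6.25%, against 9.46% of all protein-coding genes) and 0 gained (0.0368% of all). Gsto1 and Gstt3 went from 3 marked mice to 0, and Ugt3a2 and Gstp1 from 2 to 0. In RD 2 genes were lost, Gsto1 and Gstp1 (3.13%, against 3.92% of all), and 0 gained (0.221% of all). Both corn diets were compared with the same SD mice. Between the corn diets, Ugt3a2 was marked in 2 RD mice and no YD mouse, which made it the 1 gene gained in RD against YD (1.56%, against 3.81% of all), and 0 were lost (0.244% of all). Without RD mouse 2, 4 genes were lost in RD against SD and 0 gained against YD. Without SD mouse 1 or SD mouse 2, 2 genes were lost in YD and 1 in RD, without YD mouse 2 the pair of corn diets gave 2, and without RD mouse 1 it gave 0.

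The enzymes depend on other proteins for their co-substrates, for export of the products and for control of transcription, and a list of 36 such genes was examined, of which 35 were annotated. Of these, 8 were marked in every list and 3, Mgst2, Slc7a11 and Ggt1, in none. SD lists held 22 to 31 of them, CR lists 28 to 32, HF lists 30 to 32, YD lists 14 to 20 and RD lists 19 to 25. Of the 32 that were tested, 13 were lower in corn-fed mice and 0 higher, with a median difference of -24.7 points, beside the 24.5% of all genes called lower. Alternatives were added for these genes after seeing the data. With lists of equal length, 0 of 30 passed, against 0.463% of all genes tested. Among lists with the ChIP form of name, 0 of 31 passed, against 0% of all genes. With the replicate block, 10 of 32 passed, against 16.1% of all genes.

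Of the 6 genes of glutathione supply, 4 were lower, namely Gclc and Gclm, the subunits of glutamate-cysteine ligase, Gss, glutathione synthetase, and Gsr, glutathione reductase. Gsr had a mean of 15.2 ± 27.7 (SD, n = 6) against 65.6 ± 14.5 (SD, n = 9, exact permutation test, adjusted p = 0.0219). For the sulfate donor PAPS, the Golgi transporters Slc35b2 and Slc35b3 and the phosphatases Bpnt1 and Impad1 were lower, while the synthases Papss1 and Papss2 did not pass. Ugdh, which makes UDP-glucuronate, was lower at 24.3 ± 36.3 against 78.2 ± 12.4 (SD, exact permutation test, adjusted p = 0.0264). Mgst3, a microsomal glutathione transferase, and the transcription factors Nfe2l2, Rxra and Arnt completed the 13, with Nfe2l2, the regulator of antioxidant genes, marked in 5 of 6 corn-fed and 9 of 9 other mice and at 78.3 ± 38.6 against 97.6 ± 0.821 (SD, exact permutation test, adjusted p = 0.0255). No partner gene passed in HF or YD against the rest by the same test. At an unadjusted p under 0.05, 3 of 32 were higher in HF, against 18.4% of all genes tested. In YD 11 of 32 were lower at that level, against 31.7% of all genes tested.

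The promoters of the conjugating-enzyme genes were poor in CpG, as seen in the sequences of Ugt1a1, Sult1a1 and Gsta3 above. The ratio of observed to expected CpG in the 300-base promoter exceeded 0.6 in 5 of 56 genes (8.93%), against 52.7% of 16433 protein-coding genes with a RefSeq promoter, and the median was 0.209 against 0.634. At a ratio of up to 0.3, 18 of 40 conjugating-enzyme genes (45%) were marked in at least 1 list and 5 in all 15, while 24.7% of 4678 protein-coding genes at that ratio were marked and 1.65% in all. The genes marked in all lists without any CG in the promoter were Ugt2b34, Ugt2b36 and Sult1a1. Of the 17 genes marked only in SD, CR and HF mice, 12 had a promoter, with 0 to 20 CG and a median of 4.5. These counts are descriptions without a test.

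**Figure D5:**
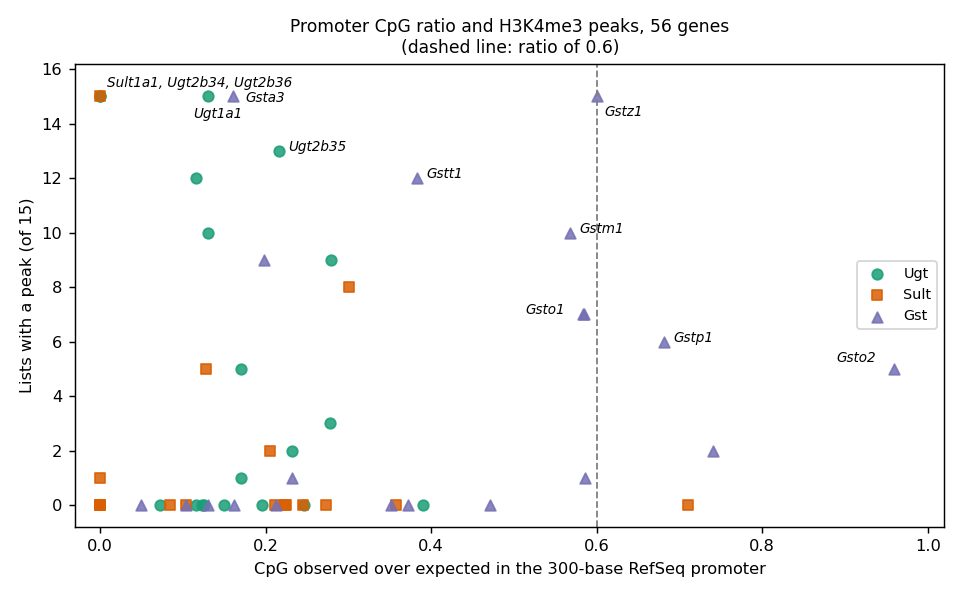
Number of lists with a peak against the ratio of observed to expected CpG in the 300-base RefSeq promoter (the highest where a gene has several), for 56 genes by class, with the dashed line at 0.6 and some points overlying each other. Genes marked in all 15 lists stand at both low ratios (Ugt1a1, Gsta3, Sult1a1, Ugt2b34, Ugt2b36) and at 0.601 (Gstz1).

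A set of 4 motifs was searched on both strands of these promoters. The binding sequence of the liver factor HNF1 was found in 8 of 67 promoters of these genes (11.9%), against 0.369% of 20061 promoters of all protein-coding genes. The 8 were those of Ugt1a1, Ugt1a9, Ugt1a10, Sult1d1, Sult2a3, Sult2a4, Sult2a5 and Sult2a6, of which Ugt1a1 was marked in every list and Ugt1a10, Sult2a4, Sult2a5 and Sult2a6 in none. The Sult2a genes share a cluster of relatives, as do the Ugt1a genes, so these matches are not independent of each other. The core of the antioxidant response element, TGACNNNGC, was found in 3 promoters (4.48%, against 13.1%), those of Gsta3, Gstm5 and Gstm7. The core of the aryl hydrocarbon receptor site, GCGTG, was found in 13 (19.4%, against 39.7%), and TATAAA in 15 (22.4%, against 12.1%). Promoters of these genes had a median of 44.8% G and C bases, against 57.7% for all protein-coding genes. The motif shares were not corrected for this difference in base content, and its part in them was not tested. The motifs were counted separately, a promoter can hold several, and a match is a stretch of letters and not a bound site.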

How the data were processed

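H3K4me3 PAT-ChIP-Seq was performed by the authors on FFPE livers of 15 mice. Reads of 50 bp were aligned to mm10 with BWA, duplicates and reads with a mapping quality under 1 were removed with SAMtools, and enriched islands (peaks) were called per mouse with SICER2 (window 200 bp, gap 400 bp, fragment 200 bp, FDR 0.05 in the methods). Whether the deposited lists carry that FDR filter is not given in the sources used here. Each deposited list gives chromosome, start, end and the score that the authors' caller summed over windows, which depends on depth. Scores were therefore ranked within each list.

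Library sizes were recovered from score steps, within 0.00046 of whole reads at an effective genome fraction of 0.74. Replicates were separate mice. Peaks within 1 kb of a TSS were assigned to GENCODE M21 genes. Score percentiles were compared by two-sided exact permutation tests per gene with Benjamini-Hochberg adjustment over 11889 genes, called at 0.05, and pairs of diets by a presence rule. In a simulation for the corn comparison, the percentiles of each gene were shuffled over the mice, and 200 genes were set far apart with a small spread. Of these, 200 of 200 were called, as were 5 of 11689 unchanged genes. The simulation held neither the wider spread nor the shared shift of the real values. It therefore checks the code and does not give the power or error rate of the test on these data. Promoters were RefSeq windows of 300 bases on GRCm38.p6, and the share of 50-base stretches found once was counted in that genome.

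Values in every mouse are given for members called in a test, and for those gained or lost between diets except Ugt1a9. They are also given for the 3 members with the widest median peak of those marked in all lists, and for Sult1a1. Gstk1 is given by its marked mice, and Gstt2 by ranges and its YD values. Sult1a1, Gstk1 and Gstt2 were chosen after their values were seen. The gene lists of partners and markers were likewise chosen with earlier results known. Scripts ran in Python 3.11.15 with scipy 1.17.1, and also numpy 2.4.6 and pandas 2.3.3; figures with matplotlib 3.10.9. Alternatives were other TSS distances, equal list lengths, a minimum width of 600 bp, coding transcripts only, other ranks, width in place of score, a replicate block, 1 form of list name, and single mice left out.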

Additional observations from a re-analysis of the deposited data

How the results depend on the processing

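Within 3 kb of a TSS, the SD mean was 20.7 marked genes and 2 genes were called between corn-fed and other mice (3026 over all genes). With the TSS inside the peak, 4 genes were marked in all lists, the SD mean was 15.7 and the YD mean 8, CR against SD gave 1 gene, HF against SD 2 and the corn comparison 2. With every list limited to its 7825 top-scoring peaks, 4 genes were marked in all lists, the means were 13.7 in SD, 10 in HF and 8.67 in RD, HF against SD gave 2, YD against SD 0 and the corn comparison 0, and the HF difference of Gsto1 turned to -0.226 points. Tested on width, the corn comparison gave 2 genes, and within the ChIP form of name 0. With a peak required in all 3 mice, YD against SD gave 2, RD against SD 1 and RD against YD 0. Without the 2 longest lists, an alternative chosen after seeing the data, RD against SD gave 4 and RD against YD 0. The causes were not tested.

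With single mice left out, the corn comparison called 0 to 5 genes, HF 0 and YD 0 to 1. Over all genes, HF called 0 and YD 0 to 738 in these cases. CR against SD gave 2 to 5 genes, HF against SD 0 to 2, YD against SD 2 to 6, RD against SD 1 to 4 and RD against YD 0 to 2. The mean correlation of same-numbered mice was -0.00384 (-0.173 to 0.0811, 30 pairs), against 0.00187 for mice with other numbers (60 pairs). These values cannot decide whether the replicate numbers mark a litter or another block. With the replicate block the corn comparison called 0 conjugating-enzyme genes, with an adjusted p of 0.06 for Gstm1 by the exact permutation test. Over all genes the corn comparison called 2917, and 44 with equal list lengths, 1006 ranked among genes, 1486 on width, 1751 with the TSS inside the peak, 1914 with the block, 1999 without the 2 longest lists and 1077 to 4682 with single mice left out. Peak lists show no signal under their threshold, so a gene without a peak is below detection at that library's depth and not shown to lack the mark.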
